A study of Mus musculus with 6 samples.

Results

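The 9 genes described here carry Hedgehog and PTHrP signalling of cartilage: the ligand genes Ihh and Pthlh, the receptor gene Pth1r, the Hedgehog receptor and transducer genes Ptch1 and Smo, the ligand binder gene Hhip, and the transcription factor genes Gli1, Gli2 and Gli3. They were found by symbol among the 43496 gene entries of a bulk RNA sequencing table, each with 1 entry, and all 9 passed the filter of a mean of at least 1 FPKM that left 15710 genes to test. FPKM is the number of sequenced fragments per kilobase of transcript, scaled to the depth of the library, so levels can be set against each other between genes. The tissue was the cranial base, the cartilage floor of the skull, of mouse embryos at E15.5, counted in days of gestation. The 3 Memo1 mutant embryos carried an allele of Memo1 made with ENU, a chemical mutagen, and were set against 3 control embryos. The labels give C57BL/6J as the strain of both groups, and neither the alleles of the controls nor the number of ENU alleles in a mutant is given in the sources used here. Each embryo gave 1 library, embryos are numbered within their genotype, and p-values measure the spread between these embryos.

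Indian hedgehog (Ihh) is secreted by chondrocytes that are about to become hypertrophic, the swelling stage that precedes bone formation. It binds PTCH1, which frees SMO to act through the GLI factors. Ptch1, Gli1 and Hhip are themselves switched on by the pathway, so their mRNA levels are commonly used as its readout. Ihh also leads resting and periarticular chondrocytes to make PTHrP, the product of Pthlh, which acts on its receptor PTH1R to keep chondrocytes dividing and to delay the next round of Ihh production. In the synchondroses, the growth plates of the cranial base, this loop sets how long cartilage grows before bone replaces it.

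The upstream sequences of 3 of these genes are printed because Ihh and Pthlh are the ligands whose mutant and control values did not overlap, and Hhip is the target whose direction depended on 1 library. They are the 250 bases before the RefSeq start site (build GRCm38.p6), written 5′ to 3′ on the strand of the gene. Capitals mark the core of a cAMP response element, TGACG on either strand, and in Hhip the whole palindrome TGACGTCA. CREB binds this element downstream of receptors such as PTH1R.
Ihh, chr1:74951673-74951922, minus strand: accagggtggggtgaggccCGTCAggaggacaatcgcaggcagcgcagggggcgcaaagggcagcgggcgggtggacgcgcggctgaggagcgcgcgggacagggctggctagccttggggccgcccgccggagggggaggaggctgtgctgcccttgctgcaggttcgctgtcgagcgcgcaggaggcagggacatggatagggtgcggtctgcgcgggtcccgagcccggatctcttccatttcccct
Pthlh, chr6:147264014-147264263, minus strand: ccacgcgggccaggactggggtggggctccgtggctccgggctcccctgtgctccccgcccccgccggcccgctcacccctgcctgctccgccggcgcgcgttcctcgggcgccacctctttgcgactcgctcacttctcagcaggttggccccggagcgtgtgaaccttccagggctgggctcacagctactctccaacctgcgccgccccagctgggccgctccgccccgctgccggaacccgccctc
Hhip, chr8:80058009-80058258, minus strand: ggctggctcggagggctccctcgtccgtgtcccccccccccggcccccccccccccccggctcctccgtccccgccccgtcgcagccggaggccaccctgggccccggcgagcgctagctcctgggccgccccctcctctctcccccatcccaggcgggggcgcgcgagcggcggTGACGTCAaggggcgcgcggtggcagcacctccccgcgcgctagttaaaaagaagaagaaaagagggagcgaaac

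RefSeq windows were at hand for 8 of the 9 genes (not Gli1), 10 windows in all because Pth1r has 3 start sites. The whole element was in 1 of these 10 windows, that of Hhip, 68 to 75 bases before the start, and in 1.55% of all 32851 windows. The core, which every whole element also holds, was in 3 of the 10, those of Hhip, Ihh and 1 start of Pth1r, against 17.8% of all windows. The GLI consensus GACCACCCA was in 0 of the 10 windows and in 0.225% of all. The RUNX motif TGTGGT was in 1, that of Gli3, and in 14% of all. Both strands were searched. The 10 windows held 56% to 78.4% G and C, the most in that of Ptch1, against a median of 52.4% over all windows. A match is a description of the letters only, and no binding was measured.

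The libraries differed in depth and in the number of entries at 0. With the depth of control 1 set to 100%, the spacing of the lowest values put mutants 2 and 3 at 117% and 152%, and controls 2 and 3 at 80.2% and 93.4%. Mutant 1 gave no usable spacing, held 30811 entries of 0, where the other libraries held 19787 to 20594, and correlated with them across genes at r = 0.748 to 0.762, where the other 5 reached 0.968 to 0.981 among themselves. Mutant 3 was the only embryo with the inactive X transcript Xist above 0.1 FPKM. Memo1 had 25.4, 20.1 and 22.2 FPKM in mutants 1, 2 and 3, against 19.1, 23.1 and 21.9 FPKM in controls 1, 2 and 3 (limma adjusted p = 0.802), which does not check the labels, since an ENU allele need not alter an mRNA level. Summed over 7 chondrocyte markers, mutants had 4281 to 4961 FPKM and controls 2900 to 3856 FPKM, with no marker at 0, so the cartilage of the label was present in every library. The hypertrophic marker Col10a1 had 378 to 429.5 FPKM in mutants and 306 to 436 FPKM in controls. The 6 osteoblast markers summed to 909.8 to 1397 FPKM in mutants and 1576 to 2291 FPKM in controls. Of these, Bglap was at 0 in mutants 1 and 3 and at 6.12 FPKM in mutant 2. Controls 1, 2 and 3 had 3.89, 2.78 and 4.78 FPKM of Bglap. The 5 epithelial markers summed to 241 to 279.6 FPKM in mutants and 478 to 488 FPKM in controls, with Epcam and Cdh1 overlapping. Muscle markers summed to 360.2 to 459 FPKM in mutants and 505 to 756 FPKM in controls, with Myog and Actn2 overlapping and Ckm not, and neuron markers to 85.2 to 129 FPKM in mutants and 86.5 to 162 FPKM in controls. The part of these differences in the values of the 9 genes was not tested.

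Both ligand genes, Ihh and Pthlh, were higher in every mutant than in every control, and so was Gli1, while the receptor gene Pth1r, Smo and Ptch1 overlapped between genotypes. None of the 9 passed limma's test with Benjamini-Hochberg adjustment over all 15710 genes (log2(FPKM + 1), threshold 0.05). That test called 0% of all genes, with 805 genes at an unadjusted p under 0.05. With array weights, which let a library far from its group count less and gave mutant 1 a weight of 0.0329, limma called 2.04% of all genes, and without mutant 1 it called 0.0446%. Both fits called 0 of the 9. Every mutant lay above every control in 3 of the 9, against 8.98% of all tested genes, and every mutant lay below every control in 0 of the 9, against 11.9%. With mutant 1 left out, mutants 2 and 3 both lay above every control in 4 of the 9, Hhip being the fourth, against 16.2% of all tested genes. In bulk tissue, fewer cells of a type and less RNA per cell cannot be told apart.

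Ihh had 29.1, 28.8 and 21.6 FPKM in mutants 1, 2 and 3, against 15, 19.2 and 19.7 FPKM in controls 1, 2 and 3. The lowest mutant, mutant 3, lay just above the highest control, and the groups did not overlap. Means were 26.5 ± 4.23 FPKM in mutants and 17.9 ± 2.6 FPKM in controls (SD, n = 3 each), a 1.48-fold difference. The log2 change was 0.54 with an SE of 0.18 and a 95% interval of 0.091 to 0.98 (limma adjusted p = 0.695). In the equal-weight fit that gave these values, Ihh alone of the 9 had an unadjusted limma p under 0.05. Of all genes 2.11% reached this in the same direction. After quantile normalization the unadjusted limma p was 0.0427 for Ihh, 0.0348 for Pthlh and 0.0367 for Gli1. In that fit 856 of the 15710 genes were under 0.05. With array weights the unadjusted limma p was 0.026 for Ihh, 0.00325 for Pthlh and 0.0128 for Gli1, and 2876 of the 15710 genes were under 0.05. For Ihh the unadjusted limma p was 0.0807 without mutant 2, 0.0867 without control 1 and 0.0501 without control 2. In the authors' deposited table its p was 0.0409 and its q 0.399. Between embryos whose titles share their first word, the meaning of which is not given, Ihh was 29.1 FPKM in mutant 1 and 15 FPKM in control 1, and 21.6 FPKM in mutant 3 and a mean of 19.4 FPKM in controls 2 and 3. Its log2 change between mutant and controls was thus 0.92 in the first set and 0.15 in the second. With that word as a fixed term, the unadjusted limma p of Ihh was 0.121, with a 95% interval of -0.19 to 1.15.

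Pthlh, which encodes PTHrP, was the lowest of the 9 in both genotypes. It had 5.94, 7.89 and 7.19 FPKM in mutants 1, 2 and 3, against 4, 5.39 and 4.78 FPKM in controls 1, 2 and 3. Mutant 1 was the lowest mutant and still lay above control 2, the highest control. Means were 7.01 ± 0.985 FPKM in mutants and 4.72 ± 0.694 FPKM in controls (SD, n = 3 each). The log2 change was 0.48, SE 0.21, with a 95% interval of -0.043 to 1.01 (limma adjusted p = 0.695). With array weights it was 0.56, SE 0.13 (limma adjusted p = 0.0782), the smallest adjusted p of any of the 9 under any alternative, and without mutant 1 it was 0.58 (limma adjusted p = 0.13). The authors' deposited table gives Pthlh a signed fold of 1.49 and a p of 0.0297. Pthlh is made by epithelia too. The epithelial markers Krt5, Krt8 and Krt15 were lower in every mutant than in every control, against 11.9% of all tested genes. Epcam and Cdh1 overlapped. Epcam had 22.7, 25.7 and 16 FPKM in mutants 1, 2 and 3, against 19.2, 23.2 and 13.2 FPKM in controls 1, 2 and 3. For Cdh1 these were 27.6, 19.9 and 20.9 FPKM in mutants, against 21.5, 18.5 and 17 FPKM in controls. Krt5 had 29.3, 27 and 29 FPKM in mutants 1, 2 and 3, against 95, 83.8 and 93.8 FPKM in controls 1, 2 and 3. The part of epithelium in the Pthlh values was not tested.

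**Figure D1:**
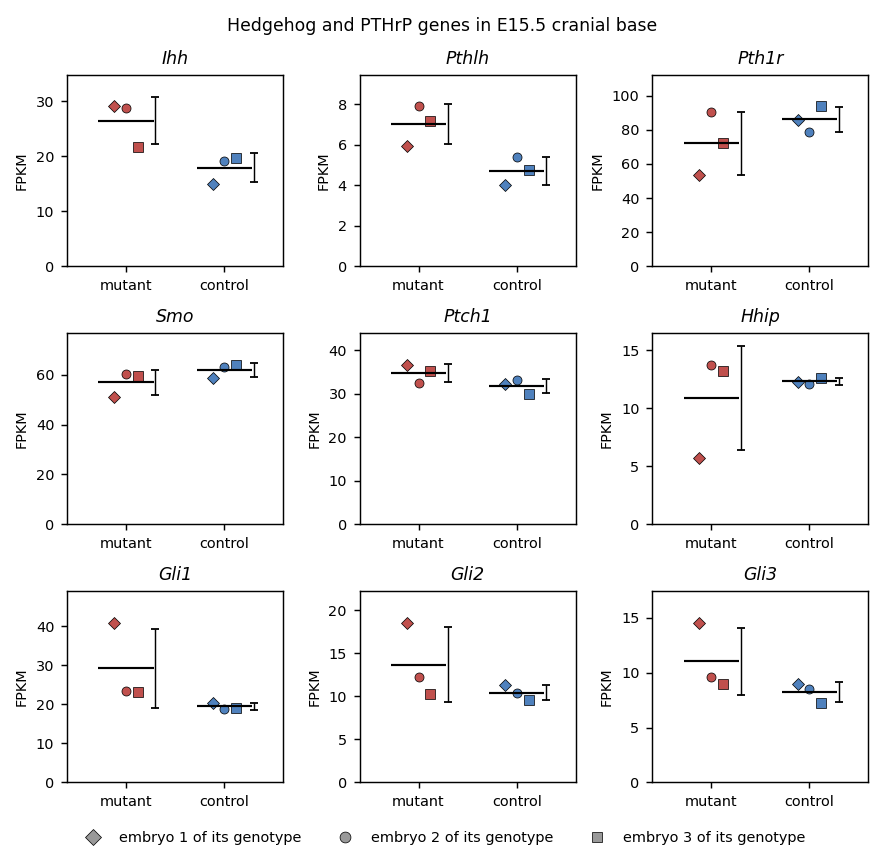
FPKM of the 9 genes in each of the 3 mutant (left, red) and 3 control (right, blue) libraries, with the symbol shape giving the embryo's number within its genotype, the line the group mean and the bar beside it 1 SD. Mutants lie above controls without overlap for Ihh, Pthlh and Gli1, and mutant 1 stands apart from mutants 2 and 3 for Hhip, Gli1, Gli2 and Gli3.

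Pth1r, the G protein coupled receptor for PTHrP and PTH in chondrocytes and osteoblasts, had the highest level of the 9. It had 53.7, 90.3 and 72.1 FPKM in mutants 1, 2 and 3, against 85.9, 78.7 and 93.6 FPKM in controls 1, 2 and 3. Mutant 2 lay within the range of the controls and the other two mutants below it. Means were 72 ± 18.3 FPKM in mutants and 86.1 ± 7.45 FPKM in controls (SD, n = 3 each), with a log2 change of -0.28, SE 0.20 (limma adjusted p = 0.695). Without mutant 1 the log2 change was -0.089, less than its SE of 0.12.

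Ligand and receptor of PTHrP signalling were also set against each other within each library. The Pth1r value was 9.03, 11.4 and 10 times that of Pthlh in mutants 1, 2 and 3, against 21.4, 14.6 and 19.6 times in controls 1, 2 and 3. Every mutant lay below every control. As a log2 ratio of FPKM + 1 this was 3.17 ± 0.192 in mutants and 3.93 ± 0.254 in controls (SD, n = 3 each), a difference of -0.77. The exact two-sided permutation test over embryos gave p = 0.1, the smallest that 3 against 3 allows, and 0.3 adjusted over the 3 ratios tested. The difference was negative under each alternative run for it, a pseudocount of 0.1, quantile normalization and leaving out each library.

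Smo, the transducer that PTCH1 holds inactive, had 51.2, 60.1 and 59.4 FPKM in mutants 1, 2 and 3, against 58.5, 63.1 and 64.1 FPKM in controls 1, 2 and 3. Control 1 lay within the range of the mutants. Its log2 change was -0.12 with a 95% interval of -0.39 to 0.15 (limma adjusted p = 0.695).

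Ptch1, receptor and target at once, had the smallest coefficient of variation of the 9 among mutants, 6.1%, with 5.17% among controls. It had 36.7, 32.5 and 35.2 FPKM in mutants 1, 2 and 3, against 32.4, 33.2 and 30 FPKM in controls 1, 2 and 3, and mutant 2 lay among the controls. The log2 change was 0.13 with a 95% interval of -0.14 to 0.39 (limma adjusted p = 0.695). Set against Ihh within a library, Ptch1 was 1.26, 1.13 and 1.63 times the ligand in mutants 1, 2 and 3, against 2.17, 1.73 and 1.52 times in controls 1, 2 and 3. Mutant 3 overlapped the controls here. The log2 ratio was 0.39 ± 0.261 in mutants and 0.8 ± 0.244 in controls (SD, n = 3 each; exact permutation p = 0.2, adjusted 0.3).

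Hhip, which encodes a membrane protein that binds Hedgehog ligands and dampens the signal, had 5.71, 13.8 and 13.2 FPKM in mutants 1, 2 and 3, against 12.3, 12.1 and 12.6 FPKM in controls 1, 2 and 3. Mutant 1 lay below all controls, and mutants 2 and 3 above all of them. The log2 change was -0.25, SE 0.33, in all 6 libraries (limma adjusted p = 0.73). Its direction turned when mutant 1 counted little or not at all, to 0.11 with array weights (limma adjusted p = 0.603) and 0.12 without mutant 1 (limma adjusted p = 0.515). Mutant 1 and control 1, whose titles share the first word, differed by a log2 change of -0.98, and mutant 3 and controls 2 and 3 by 0.087.

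Gli1, the activator that is itself a Hedgehog target, had 40.9, 23.5 and 23.2 FPKM in mutants 1, 2 and 3, against 20.4, 18.8 and 19.1 FPKM in controls 1, 2 and 3. Every mutant lay above every control, and mutant 1 far above the other mutants. Means were 29.2 ± 10.1 FPKM in mutants and 19.4 ± 0.815 FPKM in controls (SD, n = 3 each), which is 1.5-fold, and the fold of means without mutant 1 was 1.2. The log2 change was 0.51, SE 0.24 (limma adjusted p = 0.695), and 0.25, SE 0.080, without mutant 1 (limma adjusted p = 0.204). With array weights the change was 0.26, SE 0.079 (limma adjusted p = 0.143).

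Gli2, the main activator at the start of the signal, had 18.6, 12.2 and 10.3 FPKM in mutants 1, 2 and 3, against 11.3, 10.4 and 9.58 FPKM in controls 1, 2 and 3. Gli3, which acts mostly as a repressor when no ligand is bound, had 14.6, 9.62 and 8.99 FPKM in mutants 1, 2 and 3, against 9.01, 8.57 and 7.26 FPKM in controls 1, 2 and 3. Both overlapped between genotypes, with mutant 3 inside the range of the controls. Their log2 changes were 0.32 for Gli2 and 0.35 for Gli3 (limma adjusted p = 0.695 each). Without mutant 1 they came to 0.098 and 0.16, each with an SE of 0.12. Gli1 was 2.81, 2.44 and 2.58 times the level of Gli3 in mutants 1, 2 and 3, against 2.26, 2.2 and 2.64 times in controls 1, 2 and 3. These ratios overlapped (log2 ratio 1.3 ± 0.114 in mutants and 1.14 ± 0.126 in controls, SD, n = 3 each; exact permutation p = 0.3, adjusted 0.3).

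**Figure D2:**
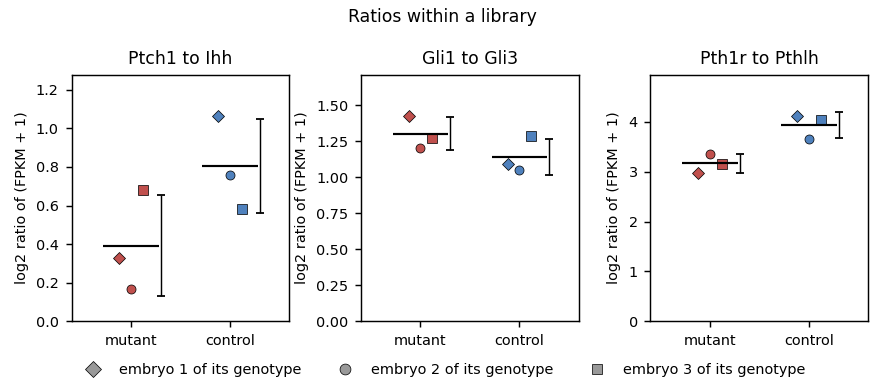
Ratios of 2 genes within a library as the log2 ratio of FPKM + 1, for 3 mutant (left, red) and 3 control (right, blue) libraries, with lines at the means and bars of 1 SD. The Pth1r to Pthlh ratio is lower in all 3 mutants than in all 3 controls, and the other two ratios overlap.

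Mutant 1 moved several of the 9 genes at once. It had the highest Gli1, Gli2, Gli3, Ihh and Ptch1 of the mutants and the lowest Pth1r, Smo, Hhip and Pthlh. On the log2(FPKM + 1) scale it lay 1.11 below the mean of mutants 2 and 3 for Hhip, a gap that 39.2% of all tested genes reached or passed in that library, and 0.78 above it for Gli1, which 50.7% reached. Of the 9, only Hhip had a gap above the median over all tested genes, 0.80, and Hhip, Gli1 and Gli2 had one above 0.63, the median over the 9498 tested genes within the range of levels of the 9. Ihh, at 0.21 above the other mutants, stood closer to them than did 83.1% of tested genes. The part of the state of this library in these gaps was not tested.

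**Figure D3:**
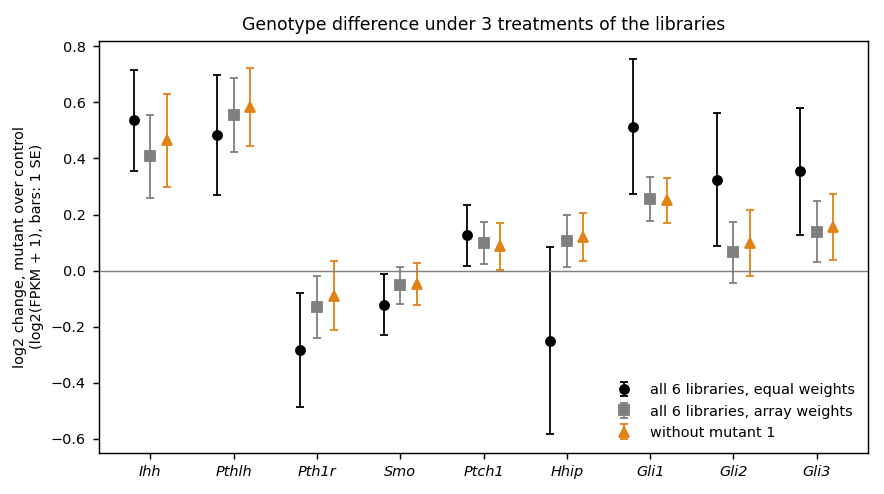
Log2 change of the 9 genes, mutant over control, on the log2(FPKM + 1) scale with bars of 1 SE, from all 6 libraries with equal weights (black), with array weights (grey) and without mutant 1 (orange). Ihh and Pthlh keep values above 0.4 in all 3 fits, the Gli genes shrink without mutant 1, and Hhip turns from below 0 to above it.

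The order of levels from high to low was Pth1r, Smo, Ptch1, Gli1 and Ihh in both genotypes. In mutants Gli2, Gli3, Hhip and Pthlh followed, and in controls Hhip, Gli2, Gli3 and Pthlh. This difference in order rested on mutant 1: over mutants 2 and 3 the means were 13.5 FPKM for Hhip, 11.3 FPKM for Gli2 and 9.3 FPKM for Gli3, the order of the controls, and Ihh at 25.2 FPKM stood above Gli1 at 23.3 FPKM. Among controls each gene lay above the next in all 3 embryos without overlap of the ranges, except Gli1 and Ihh, which overlapped. In mutants the ranges of neighbours overlapped except between Smo and Ptch1 and between Ihh and Gli2. Over all 6 libraries Pth1r was higher than 92.9% of tested genes, Ihh than 69.7% and Pthlh than 32.4%.

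Among other genes of the 2 pathways, listed with earlier results of these data known, those that make and release Hedgehog ligands lay on the higher side in mutants, and the regulators of Smo and Gli were split. All 7 genes of ligand synthesis and release had log2 changes above 0, with a median of 0.46 where the median of all tested genes was -0.046 and 45.8% of them were above 0. None of the 7 passed with equal weights, 2 passed with array weights, where 2.04% of all tested genes did, and 0 without mutant 1. In 4 of the 7 every mutant lay above every control, against 8.98% of all tested genes. Among them were Disp1 and Hhat. Disp1 had 24.9, 9.9 and 9.96 FPKM in mutants 1, 2 and 3, against 8.5, 8.33 and 9.68 FPKM in controls 1, 2 and 3. For Hhat these were 6.32, 5.06 and 5.02 FPKM in mutants, against 3.89, 4.92 and 4.12 FPKM in controls. Without mutant 1 the limma adjusted p was 0.491 for Disp1 and 0.497 for Hhat. Without mutant 1 the median was 0.19 and 5 of 7 were above 0, against 47% of all tested genes. The genes that passed with array weights encode SCUBE proteins, secreted helpers of Hedgehog release.

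Scube2 had 11, 9.09 and 8.5 FPKM in mutants 1, 2 and 3, against 4.94, 6.12 and 5.35 FPKM in controls 1, 2 and 3 (weighted log2 change 0.58, SE 0.11, limma adjusted p = 0.0493; equal weights 0.70, SE 0.19, limma adjusted p = 0.695). Scube3 had 27.4, 14 and 14.6 FPKM in mutants 1, 2 and 3, against 10.4, 9.7 and 8.57 FPKM in controls 1, 2 and 3 (weighted log2 change 0.55, SE 0.10, limma adjusted p = 0.0477; equal weights 0.84, SE 0.28, limma adjusted p = 0.695). For both genes every mutant lay above every control, and without mutant 1 the limma adjusted p was 0.0998 for Scube2 and 0.104 for Scube3. Scube1 had 11.2, 13.8 and 16.7 FPKM in mutants 1, 2 and 3, against 11.4, 11.4 and 9.68 FPKM in controls 1, 2 and 3, so mutant 1 lay among the controls. The other Hedgehog ligand genes were low, with 5.34, 1.73 and 0.933 FPKM of Shh in mutants 1, 2 and 3 and 1.63, 1.34 and 1.07 FPKM in controls 1, 2 and 3. Dhh had 3.85, 1.45 and 2.28 FPKM in mutants 1, 2 and 3, against 2.27, 1.83 and 1.51 FPKM in controls 1, 2 and 3. Ihh was thus the most abundant of the 3 ligand genes in each library.

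Of 5 co-receptor and ligand binder genes 4 were tested, Lrp2 being at most 0.196 FPKM in any library. All 4 had log2 changes above 0 (median 0.13), against 45.8% of all tested genes. With equal weights, with array weights and without mutant 1, 0 passed, against 0%, 2.04% and 0.0446% of all tested genes. Without mutant 1, 3 of 4 were above 0, against 47% of all tested genes, and Gas1, a co-receptor gene, had a log2 change of -0.078. Gpc3, a glypican that competes for Hedgehog, had 407, 393 and 403 FPKM in mutants 1, 2 and 3, against 328, 380.1 and 358 FPKM in controls 1, 2 and 3. The co-receptor gene Cdon had 28.8, 23 and 22.6 FPKM in mutants 1, 2 and 3, against 21.2, 21.4 and 20.2 FPKM in controls 1, 2 and 3. For Gpc3 and Cdon, 2 of the 4, every mutant lay above every control, against 8.98% of all tested genes. Their log2 changes without mutant 1 were 0.17 for Gpc3 (limma adjusted p = 0.39) and 0.12 for Cdon (limma adjusted p = 0.477). Boc, another co-receptor gene, had 21.7, 34.8 and 33.8 FPKM in mutants 1, 2 and 3, against 27.6, 27 and 28.6 FPKM in controls 1, 2 and 3, so mutant 1 lay below the controls and mutants 2 and 3 above them.

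The 13 regulators of Smo and Gli had 6 log2 changes above 0 and 7 below, with a median of -0.041. Of all tested genes 45.8% were above 0. None of the 13 passed in any of the 3 fits, which called 0%, 2.04% and 0.0446% of all tested genes. Prkaca encodes a catalytic subunit of protein kinase A, which marks GLI proteins for processing. It had 67.7, 104 and 97.1 FPKM in mutants 1, 2 and 3, against 117, 126 and 135 FPKM in controls 1, 2 and 3. Every mutant lay below every control in this 1 of the 13, against 11.9% of all tested genes. Kif7, a ciliary kinesin of the pathway, was the 1 with every mutant above every control, against 8.98% of all tested genes, at 11.6, 7.17 and 7.44 FPKM in mutants 1, 2 and 3 and 5.91, 6.19 and 5.84 FPKM in controls 1, 2 and 3. Prkar1a, a regulatory subunit of the same kinase as Prkaca, had 177, 119 and 126 FPKM in mutants 1, 2 and 3, against 116, 119 and 118 FPKM in controls 1, 2 and 3. Prkacb, which encodes another catalytic subunit, overlapped between genotypes. It had 17.5, 26 and 30.1 FPKM in mutants 1, 2 and 3, against 28, 30.3 and 26 FPKM in controls 1, 2 and 3.

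Of the list of other target genes 3 were tested (Foxf1 and Foxl1 were not analysed here). In the 3 fits, which called 0%, 2.04% and 0.0446% of all tested genes, 0 of them passed. Ccnd1, a cyclin of G1 phase, had 61.9, 78.2 and 80.1 FPKM in mutants 1, 2 and 3, against 77.9, 79.8 and 77.7 FPKM in controls 1, 2 and 3, so only mutant 1 stood apart. Foxf2, a forkhead gene of Hedgehog-responsive mesenchyme, had 34.7, 18.1 and 22.9 FPKM in mutants 1, 2 and 3, against 19.3, 21.3 and 23.1 FPKM in controls 1, 2 and 3. Mycn, a growth regulator, was listed at 0 in mutant 1 and had 4.89 and 4.73 FPKM in mutants 2 and 3, against 4.46, 4.83 and 4.67 FPKM in controls 1, 2 and 3. Mutant 1 held 30811 entries of 0, where the other libraries held 19787 to 20594. The mitochondrial gene mt-Co1 was at 0 in all 6 libraries, which does not bear on a 0 in mutant 1 alone. Why Mycn was listed at 0 was not tested.

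Of 21 genes of PTH receptor signalling 19 were tested, with 10 log2 changes above 0 and 9 below and a median of 0.012. Of all tested genes 45.8% were above 0. Without mutant 1, 7 of the 19 were above 0, against 47% of all tested genes. The other ligand gene, Pth, was at 0 in all libraries, and the second receptor gene, Pth2r, was at most 0.115 FPKM. None of the 19 passed with equal weights, 1 passed with array weights, against 2.04% of all tested genes, and 0 without mutant 1. That gene was Nkx3-2, a repressor gene downstream of PTHrP in immature chondrocytes. It had 16.5, 13.5 and 12.1 FPKM in mutants 1, 2 and 3, against 4.55, 5.45 and 6.59 FPKM in controls 1, 2 and 3. Its weighted log2 change was 1.08, SE 0.14 (limma adjusted p = 0.0223), and without mutant 1 it was 1.09 (limma adjusted p = 0.0623). Mef2c drives chondrocyte hypertrophy. It had 22.9, 29.8 and 30 FPKM in mutants 1, 2 and 3, against 36, 35.7 and 37.9 FPKM in controls 1, 2 and 3. Its limma adjusted p was 0.695. Zfp521, a zinc finger gene downstream of PTHrP in growth plate chondrocytes, had 19.6, 24.8 and 24.6 FPKM in mutants 1, 2 and 3, against 31.5, 28.8 and 30 FPKM in controls 1, 2 and 3 (limma adjusted p = 0.695). Neither Mef2c nor Zfp521 passed with array weights (limma adjusted p = 0.0854 and 0.102). Whether the levels of Nkx3-2, Mef2c and Zfp521 follow PTHrP signalling was not tested. Every mutant lay below every control in 3 of the 19, which were Mef2c, Zfp521 and Sik2, or 15.8% against 11.9% of all tested genes.

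**Figure D4:**
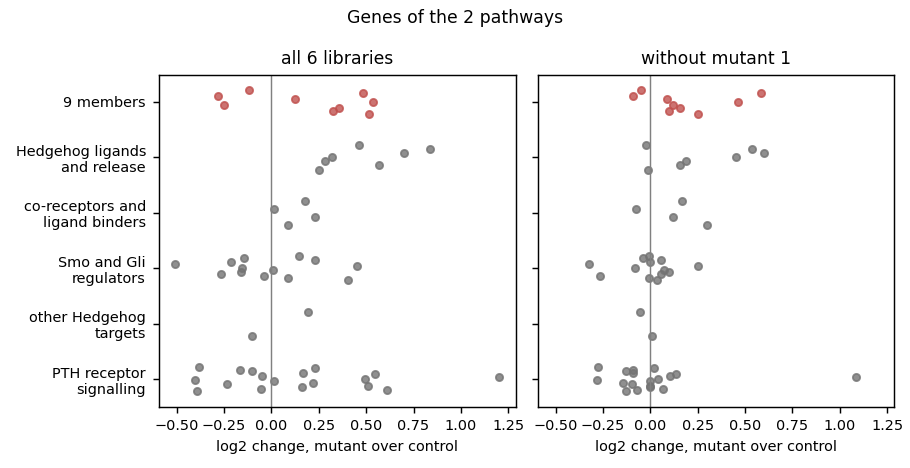
Log2 change, mutant over control, of each tested gene in the 9 members (red) and 5 other pathway lists (grey), from all 6 libraries (left) and without mutant 1 (right). Each point is 1 gene, and Mycn and Runx3, listed at 0 in mutant 1, are not drawn. All 7 genes of ligand synthesis and release lie above 0 on the left and 5 of 7 on the right, and the point at the far right in the lowest row is Nkx3-2.

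The genes most like a given member were found as those with the smallest root mean square difference of log2(FPKM + 1) over the 6 libraries after centring each gene, among 10250 other genes of at least 5 FPKM and never at 0. Nearest to Ihh were Vegfa (difference 0.088), Ubr4 (0.091) and Vegfc (0.093). Vegfa, an angiogenic growth factor gene, had 47.3, 50.4 and 39 FPKM in mutants 1, 2 and 3, against 29.9, 35.5 and 33.1 FPKM in controls 1, 2 and 3, so no mutant overlapped a control. Nearest to Pthlh were Gja5 (0.041), Phlda1 (0.084) and Vps37d (0.085). Nearest to Pth1r were Arhgap24 (0.043), Pdk2 (0.048) and Rpl3 (0.060). Ptch1 lay closest to Il1rap (0.018), Tmem164 (0.021) and Ric8b (0.021), and Gli1 to Cttn (0.029), Ppp1r3c (0.029) and Ing1 (0.037). None of the 8 other Hedgehog and PTHrP genes was among the nearest 3 of any of the 5 genes asked. With 6 libraries and this many candidates, close profiles are frequent, and these names are a description only.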

How the data were processed

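Embryo cranial bases were kept in RNAlater until genotyping and total RNA was sequenced on Illumina libraries, per the labels' protocols. The deposited values are FPKM made by the authors, with Cufflinks and the build mm9 per the submitters' processing notes. The unit is inferred from this tool and the values. The aligner, the filters and the annotation release are not stated. The authors' deposited signed fold (a score, treatment over control when 1 or more and otherwise minus control over treatment), p-value and q-value (held as a score, 99 where no q is given) rest on a test that is not stated.

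The code 999999999 was taken as missing, which removed 15 entries. A gene entered limma 3.58.1 (R 4.3.3) when its mean over the 6 libraries reached 1 FPKM. The fit used log2(FPKM + 1), which understates the change of low genes, with genotype as its sole term and trended, robust eBayes, two-sided, Benjamini-Hochberg adjusted over every tested gene. Ratios of 2 genes were tested by exact permutation over embryos. Depth relative to control 1 was read from values under 0.1 FPKM, where ratios that gather within 2% in at least 100 genes mark 1 fragment. With no counts in the table, no counting intervals are printed. The limma script was tested on simulated data with large changes, a capped spread and no outlying library. That checks the code, and does not measure how well the fit finds changes in these data.

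The members, lists and ratios were chosen with earlier results of these data known. Named genes are the members, the 3 tested genes of each list with the smallest p, and the 3 genes most like each of Ihh, Pthlh, Pth1r, Ptch1 and Gli1. Krt5, Epcam, Cdh1, Prkacb, Shh, Dhh, Disp1, Hhat, and genes named for a 0 or for lying under the filter were chosen after their values were seen. Alternatives were a pseudocount of 0.1, no filter, a mean of at least 5 FPKM, median-ratio scaling, quantile normalization, array weights, the first word of the title as a fixed or random term, and leaving out each library. Only the RefSeq sequences carry coordinates, in GRCm38.p6. Of the genes first listed, 1 is not reported here.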

Additional observations from a re-analysis of the deposited data

How the results depend on the processing

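Over 14 alternatives the direction of the log2 change stayed as reported in 124 of 126 values of the 9 genes, and in 8 of the 9 genes under all of them. The exception was Hhip, at 0.11 with array weights and, when 1 library at a time was left out, between -0.45 and 0.12, the highest without mutant 1. The cause was not tested. No alternative called any of the 9, and the smallest limma adjusted p was 0.0782. Log2 changes ranged from 0.41 to 0.67 for Ihh, from 0.39 to 0.59 for Pthlh and from 0.25 to 0.65 for Gli1, the lowest of Gli1 without mutant 1. Over all genes limma called 320 with array weights, and 0 to 7 when 1 library was left out, the 7 without mutant 1, against 0 with equal weights. The title word as a replicate block, a fixed or a random term, called 0 genes and 0 of the 9. The word's meaning is not given. Deviations of mutant and control libraries that share it correlated at -0.028 to 0.0015, against -0.074 to 0.048 for those that do not. The fit with the word as a random term estimated a correlation of 0.108 between libraries that share it. The 3 ratios kept their direction in all 24 alternative values. Levels that rest on mutant 1, whose depth could not be read, are the least precise.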
